A study of Mus musculus with 20 samples.

Results

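The loss of Acsl1 from the heart was examined in mice that all received rapamycin, with 5 ventricle libraries from Acsl1H-/- mice set against 5 from Acsl1flox/flox littermates. These 10 libraries were taken from the 20 of the series by their titles, and no measured value chose them. Polyadenylated RNA was sequenced, and each gene has 1 normalized expression value per library. All genes with a value of at least 10 in 5 or more of the 20 libraries were tested, which left 13548 of 21705 genes.

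Acsl1H-/- rapamycin mice (called knockout here) had lost Acsl1 from the heart after tamoxifen and received rapamycin at 1 mg/kg daily for 2 weeks. Acsl1flox/flox rapamycin mice (called control) had the same injections and kept Acsl1, whose gene carries recombination sites. The other 10 libraries, 5 Acsl1H-/- and 5 Acsl1flox/flox, came from mice given vehicle in place of rapamycin, and serve to ask whether the effect differed between the drug arms. They also entered the filter on low values and the shared estimate of spread, and the genes called under vehicle were chosen from them. All mice were C57Bl/J6 males aged 6 to 8 weeks that had tamoxifen at 75 mg/kg on 4 days, and their ventricles were taken 2 weeks after tamoxifen. The sources used here give neither the Cre line nor its promoter. A recombinase active in knockout hearts and the loss of Acsl1 itself cannot be told apart in this design. The libraries count as separate animals only as far as the design text speaks of 5 biological replicates per condition.

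ACSL1 joins long-chain fatty acids to coenzyme A, the step that commits them to oxidation in mitochondria or to storage, and it is the main enzyme of its family in heart muscle. The heart normally draws most of its energy from fatty acids and turns to glucose when that supply fails. The kinase mTOR senses nutrients and growth factors, promotes the making of ribosomes and protein and restrains autophagy. Rapamycin binds FKBP12 and inhibits the mTOR complex that carries Raptor. The series sets both factors together, to separate the parts of the early response to fuel loss that need mTOR from those that do not.

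The values imply 14.02 to 20.28 M reads per knockout rapamycin library and 13.04 to 21.07 M reads per control rapamycin library. Between 14953 and 15584 genes lay above 0 in a rapamycin library. None of the 10 rapamycin libraries stood apart from the rest, whereas control vehicle libraries 1 and 3 did so on the first principal component, so the vehicle values below carry that limit. The libraries were those of heart muscle: the summed value of 11 cardiomyocyte markers had a median of 1976636 in knockout and 1966808 in control rapamycin libraries, and none of the 11 was at 0. Each of the 4 sequencing pools held at least 1 library of both rapamycin groups.

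Under rapamycin, the knockout changed 3 of the 13548 genes tested (0.0221%): Acsl1 fell, and Esr1 and A1cf rose. A gene was called when its p from limma, adjusted by the Benjamini-Hochberg method over all genes tested, was under 0.05. No gene of fatty acid oxidation, glucose use, mTOR signalling, hypertrophy or fibrosis passed that test. Fold changes are differences of mean log2(value + 1), knockout minus control, and understate the change of genes near 0.

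Acsl1 (Entrez gene 14081) had values of 1052, 1950, 948, 631 and 1539 in the 5 knockout rapamycin libraries, against 12198, 10518, 12121, 16661 and 11698 in the 5 control rapamycin libraries. The highest knockout library lay far below the lowest control library, and no label was contradicted. The mean was 1224 ± 520 in knockout and 12639 ± 2346 in control libraries (SD, n = 5 each), so that 9.68% of the control mean remained. The log2 change was -3.46 (SE 0.28, limma adjusted p = 4.65e-07), and the exact permutation test, two-sided, gave p = 0.00794, the smallest value that 5 against 5 libraries allow. Within the 4 pools the difference was -2.64, -3.65, -3.67 and -3.57. In tissue RNA, fewer cells that express a gene and less of its RNA per cell cannot be told apart.

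Esr1 (Entrez gene 13982), which encodes oestrogen receptor alpha, had values of 51952, 41812, 44962, 45000 and 42899 in knockout rapamycin libraries, against 161, 233, 195, 195 and 128 in control rapamycin libraries. Every knockout library lay far above every control library. Esr1 averaged 45325 ± 3949 in knockout and 182 ± 39.7 in control libraries (SD, n = 5 each), a log2 change of 7.97 (SE 0.21, adjusted p = 3.87e-16). Within the 4 pools the log2 difference was 8.01, 7.92, 7.84 and 8.41.

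A1cf (Entrez gene 69865), which encodes a cofactor of the editing of apolipoprotein B messenger RNA, had values of 27.5, 5.74, 17.2, 10.3 and 40.9 in knockout rapamycin libraries and was listed at 0 in all 5 control rapamycin libraries. Its level was low in every knockout library, and the groups did not overlap. The adjusted p was 3.89e-05. No fold is given for A1cf, because the control values are 0 and the fitted change depends on the pseudocount.

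**Figure D1:**
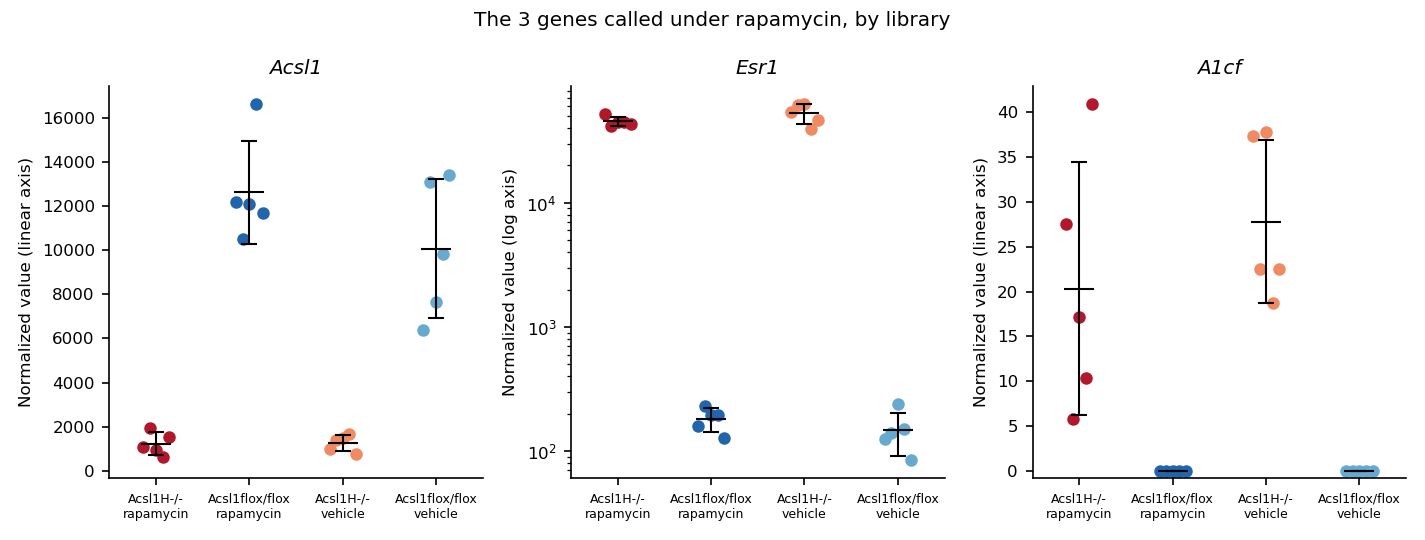
Normalized value of Acsl1 (linear axis), Esr1 (log axis) and A1cf (linear axis) in each library, with 5 libraries per group. Points are libraries, the wide bar is the group mean and the whiskers 1 SD. Acsl1 is low and Esr1 and A1cf are high in the knockout libraries of both drug arms, and A1cf is at 0 in every control library.

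Tamoxifen-inducible Cre recombinases are fused to a mutated ligand-binding part of the oestrogen receptor, and a widely used heart-specific Cre transgene of this kind has been mapped into A1cf. The gene-level values do not separate reads of the mouse genes from reads of such a transgene, and its part in these values was not tested. No gene beside the 3 called genes was called under rapamycin. The 6 tested genes nearest to Acsl1, 3 on each side in the RefSeq order, had log2 changes of -0.84 to 0.11 under rapamycin. Genes that were not tested were skipped. The 6 tested genes nearest to Esr1 lay between -0.17 and 0.14, and the 6 nearest to A1cf between -0.13 and 0.71. None of these neighbours had an unadjusted p under 0.05. The largest positive value was that of Prkg1, a cyclic GMP-dependent protein kinase gene near A1cf. It was at 207 ± 75.2 in knockout and 127 ± 50.9 in control rapamycin libraries (unadjusted p = 0.0553). The log2 change of Prkg1 was 0.71 under rapamycin (95% interval -0.02 to 1.45) and 1.38 under vehicle. Mlf1ip, near Acsl1, was near the floor and had the widest interval (-2.48 to 0.80).

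Among other genes that respond to oestrogen receptors, no member was called. Of 11 tested members of that list, which includes Esr1 itself, 2 lay higher and 1 lower at an unadjusted p under 0.05, and the median log2 change was 0.08. Wisp2, a secreted matricellular protein, was at 343 ± 74.3 in knockout and 209 ± 43.2 in control libraries (unadjusted p = 0.0183, adjusted p = 1.0). In the list of A1cf and messenger RNA editing partners, A1cf was the sole member of 8 called. The RNA-binding protein gene Syncrip was at 2072 ± 262 in knockout and 1900 ± 211 in control libraries, with a log2 change of 0.12.

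Over all genes, knockout and control hearts under rapamycin lay close together. The median log2 change was -0.02, and 113 genes had a change of at least 1 on the log2 scale in either direction. An unadjusted p under 0.05 was reached by 403 genes (2.97%), of which 170 lay higher (1.25%) and 233 lower (1.72%). The spread behind these p-values was estimated from all 20 libraries, and the number of such genes varied with the setting. It was 573 (4.23%) without control vehicle libraries 1 and 3, and 598 (4.41%) with only the 10 rapamycin libraries. The 5 knockout libraries lay wholly above the 5 control libraries for 45 genes (0.332%) and wholly below them for 74 genes (0.546%).

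The vehicle arm, fitted in the same model, had more genes apart. There 33 genes were called (0.244%), 4315 had an unadjusted p under 0.05 (31.8%), and 587 had a change of at least 1 on the log2 scale. By direction, 19.8% of genes lay higher and 12.1% lower at an unadjusted p under 0.05 under vehicle, and the groups did not overlap for 1.45% of genes (higher) and 0.871% (lower). The 2 arms share no library.

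**Figure D2:**
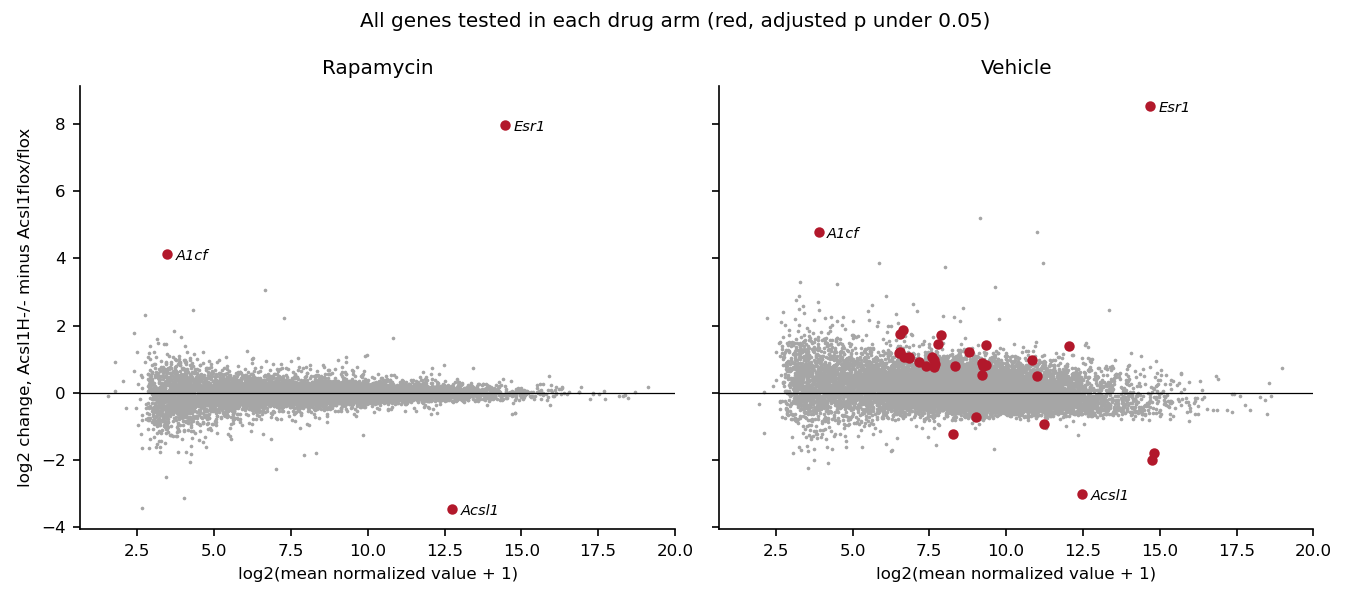
The log2 change of every gene tested, knockout minus control (vertical axis), against log2(mean normalized value + 1) of the same arm (horizontal axis), under rapamycin (left) and vehicle (right). Red points passed the adjusted threshold. Under rapamycin the 3 called genes stand apart from a narrow band around 0, and under vehicle the band is wider and 33 genes are called.

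The interval of each change says how large a difference the rapamycin comparison could have missed. The 95% interval lay wholly within 2-fold either way for 11673 genes (86.2%) under rapamycin, and within 1.5-fold either way for 7979 genes (58.9%). Under vehicle these numbers were 9769 genes (72.1%) and 5074 genes (37.5%). The median half-width of the interval was 0.397 in both arms. The shared estimate of spread and the equal group sizes fix this equality, so it does not compare the precision of the arms. The median absolute log2 change was 0.105 under rapamycin and 0.289 under vehicle. Without control vehicle libraries 1 and 3 it was 0.151 under vehicle and still 0.105 under rapamycin. Of the 10336 genes with a mean of at least 100 over the rapamycin libraries, the interval lay within 2-fold for 96.4% and within 1.5-fold for 73.4% under rapamycin. For the remaining genes, differences of 2-fold or more were not excluded at this precision.

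The other long-chain acyl-CoA synthetases did not pass the test in knockout hearts under rapamycin. They activate the same class of fatty acids in other organelles and tissues. Acsl3 was at 145 ± 42.7 in knockout and 135 ± 29.6 in control libraries, Acsl4 at 461 ± 83.3 and 456 ± 34.4, Acsl5 at 603 ± 34.5 and 613 ± 49.5, and Acsl6 at 290 ± 51 and 240 ± 14.5, with knockout given first. Their log2 changes were 0.07, 0.00, -0.02 and 0.26, and all 4 of the 95% intervals lay within 2-fold either way.

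The genes that bring fatty acids to the mitochondrion were not called. Of 12 tested genes of uptake and binding, 7 lay higher and 5 lower, with a median of 0.04. Cd36, the main fatty acid transporter of heart muscle, was at 85947 ± 8365 in knockout and 77797 ± 8127 in control libraries. Fabp3, the fatty acid binding protein of heart muscle, was at 86325 ± 14029 and 77358 ± 12167. In both genes the groups overlapped.

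The carnitine shuttle carries acyl groups across the inner membrane, and its list also holds the malonyl-CoA genes Acaca, Acacb and Mlycd. Of the 9 tested genes of this list, 8 lay higher, with a median log2 change of 0.21 against -0.02 over all genes. None was called or had an unadjusted p under 0.05. Cpt1b, the muscle form of the enzyme that starts the shuttle, was at 21054 ± 1499 in knockout and 18723 ± 1547 in control libraries (log2 change 0.17, 95% interval -0.04 to 0.39). Crat, carnitine acetyltransferase, had values of 18373 to 20467 in knockout and 14735 to 19734 in control libraries. The median of this list stayed between 0.17 and 0.23 under every alternative and with each rapamycin library left out.

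Beta-oxidation enzymes lay in a narrow range. Of 18 tested, 15 lay higher and 3 lower, between -0.12 and 0.22, with a median of 0.06, and all 18 intervals lay within 2-fold. Decr1, which reduces the dienoyl intermediates of unsaturated fatty acids, was the 1 member with an unadjusted p under 0.05 (21084 ± 1900 in knockout and 18150 ± 1294 in control, unadjusted p = 0.0399, adjusted p = 1.0). Acadm, the medium-chain acyl-CoA dehydrogenase, was at 34042 ± 3511 and 30839 ± 2262.

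Among 17 tested genes that respond to PPAR receptors, the fatty acid sensors of the nucleus, 2 lay higher at an unadjusted p under 0.05, none lay lower at that level and none was called. The median log2 change was 0.07. Some of these genes varied widely between libraries of 1 group. Pdk4, a kinase that shuts off pyruvate dehydrogenase in fasting, ranged from 20043 to 126748 in knockout and from 23077 to 59071 in control rapamycin libraries. Ucp3, a mitochondrial carrier induced by fatty acids, ranged from 1652 to 4677 in knockout and from 1297 to 4741 in control libraries. The 95% intervals of the log2 change were -0.87 to 1.41 for Pdk4 and -0.99 to 1.06 for Ucp3, so a 2-fold difference of either was not excluded.

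The receptors and coactivators themselves were not called, and 9 of 14 lay higher, with a median of 0.10. Ppara, the receptor isoform that drives oxidation genes, was at 2831 ± 249 in knockout and 2492 ± 534 in control libraries. Ppargc1a, a coactivator of mitochondrial genes, was at 4255 ± 965 and 3208 ± 760. Sirt1, a deacetylase that acts on it, was at 514 ± 46.5 and 437 ± 39.1.

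Storage and synthesis of lipid showed no called gene. Of 17 genes of triglyceride storage and lipolysis, 14 lay higher, with a median of 0.06, and Pnpla2, the first triglyceride lipase, was at 16802 ± 1830 in knockout and 14672 ± 695 in control libraries. Its relative Pnpla3 was low, at 11.1 ± 8.86 and 19.5 ± 3.43. Genes of fatty acid and cholesterol synthesis were split evenly, 10 higher and 10 lower. Idi1, of the sterol pathway, was at 145 ± 34.5 in knockout and 188 ± 42 in control libraries, and the desaturase gene Fads2 at 114 ± 27.9 and 80.3 ± 17.2.

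Glucose transport and glycolysis showed no called gene under rapamycin. Of 23 tested genes, 8 lay higher and 15 lower, with a median of -0.01, and 22 of the 23 intervals lay within 2-fold. Slc2a1, the basal glucose transporter, was at 755 ± 101 in knockout and 714 ± 161 in control libraries. Slc2a4, the insulin-responsive transporter, was at 13694 ± 1687 and 14704 ± 2144, and Hk2, hexokinase 2, at 7003 ± 1550 and 7434 ± 1370. The glycolytic mutase gene Pgam1 was at 3194 ± 341 and 2677 ± 365, and Hk1 at 5161 ± 643 and 4545 ± 781.

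Entry of pyruvate into the citric acid cycle is set by pyruvate dehydrogenase and its kinases. Of 14 tested genes of that group, 1 had an unadjusted p under 0.05. Pdk3, one of the kinases, had 118, 182, 144, 155 and 123 in knockout rapamycin libraries, against 116, 104, 88.7, 95.9 and 85.4 in control rapamycin libraries. The groups just failed to overlap, with a log2 change of 0.55 (SE 0.17, unadjusted p = 0.0036, adjusted p = 1.0). Pdpr, a regulator of the phosphatase, was at 1572 ± 232 in knockout and 1307 ± 347 in control libraries.

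The citric acid cycle list had 5 of 18 genes higher and 13 lower, with a median of -0.04 and all intervals within 2-fold. The fumarase gene Fh1 was at 14128 ± 545 in knockout and 15069 ± 746 in control libraries. Of 21 genes of ketone and branched-chain amino acid breakdown, 9 lay higher and 12 lower. Bcat1, the cytosolic aminotransferase, was at 22.2 ± 5.35 in knockout and 41.7 ± 15.8 in control libraries, with no overlap (unadjusted p = 0.0164, adjusted p = 1.0). Hibch, of valine breakdown, was at 1550 ± 120 and 1779 ± 170.

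Subunits of oxidative phosphorylation lay slightly lower as a group. Of 77 tested, 74 lay lower, the median being -0.12 on the log2 scale with a range of -0.32 to 0.27, where 7550 of all 13548 genes lay lower. None was called or had an unadjusted p under 0.05, and all 77 intervals lay within 2-fold. The median was -0.11 to -0.13 under the other alternatives and -0.05 to -0.25 with each rapamycin library left out. Cox6c, a subunit of cytochrome c oxidase, was at 13430 ± 1522 in knockout and 15496 ± 1255 in control libraries, and Ndufb3, of complex I, at 3322 ± 527 and 3930 ± 568. Under vehicle the median of the same genes was -0.49.

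Genes of the mTOR complexes and their regulators were evenly placed, 18 higher and 18 lower of 36, with a median of 0.00 and 35 intervals within 2-fold. Mtor itself was at 1744 ± 267 in knockout and 1498 ± 285 in control libraries. Rragd, a small GTPase that carries amino acid signals to mTOR, was at 4186 ± 448 and 3446 ± 597. Nprl2, part of the complex that switches such GTPases off, was at 338 ± 27.7 and 409 ± 50.7. Rapamycin acts on the kinase itself, and these values are RNA levels and not activity.

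Among 24 targets of ATF4, the factor that answers amino acid shortage, 1 lay higher and 1 lower at an unadjusted p under 0.05, and none was called. Phgdh, the first enzyme of serine synthesis, had 33.1, 54.5, 60.1, 55 and 39.8 in knockout rapamycin libraries, against 16.8, 40.8, 32.5, 25 and 30.2 in control rapamycin libraries. Chac1, which breaks down glutathione, had 149, 244, 211, 265 and 208 in knockout rapamycin libraries, against 437, 381, 245, 263 and 258 in control rapamycin libraries. The groups overlapped in both genes, and both adjusted p-values were 1.0.

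Autophagy and lysosome genes lay between -0.24 and 0.21, with a median of 0.02, no called gene and all 31 intervals within 2-fold. Lamp2, a membrane protein of the lysosome, was at 6954 ± 1017 in knockout and 6284 ± 568 in control libraries, and the enzyme gene Hexa at 2897 ± 617 and 2496 ± 422. Of 77 cytosolic ribosomal protein genes, 21 lay higher and 56 lower, with a median of -0.04, and 76 intervals lay within 2-fold. The median was -0.51 for the same genes under vehicle. Rpl34 was the 1 member with an unadjusted p under 0.05 (93.2 ± 14.7 in knockout and 162 ± 43.3 in control, unadjusted p = 0.0225, adjusted p = 1.0). Ribosomal protein genes have many processed copies in the genome, and how reads were split among them is uncertain. Rpl4, with a far higher value, was at 13835 ± 1056 and 12901 ± 1013.

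Natriuretic peptides and fetal contractile genes, which rise when heart muscle is overloaded, were not called under rapamycin. Nppa, atrial natriuretic peptide, had 5733, 34858, 8510, 10842 and 5941 in knockout rapamycin libraries, against 12507, 17827, 3021, 1431 and 8790 in control rapamycin libraries. The spread within each group was wider than the gap between the group means. Summed atrial and conduction markers ranged from 15070 to 71689 in knockout and from 8453 to 43330 in control rapamycin libraries, and 1 of the 17 was at 0 in every control library. The part of atrial RNA in the Nppa values was not tested.

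Nppb, brain natriuretic peptide, was at 5464 ± 1477 in knockout and 4679 ± 3053 in control rapamycin libraries. Myh6, the adult cardiac myosin heavy chain, was at 603649 ± 124628 and 539017 ± 130863, and Myh7, the slow form, at 27573 ± 6701 and 25941 ± 1390. Acta1, skeletal alpha-actin, was at 2235 ± 1700 and 2446 ± 1728. The 95% intervals were -1.0 to 2.09 for Nppb, -0.55 to 0.66 for Myh7 and -1.49 to 1.23 for Acta1 on the log2 scale. In the whole hypertrophy list, 14 of 23 tested genes lay higher, with a median of 0.06. Nfatc3, a calcineurin-responsive factor, was the 1 higher at an unadjusted p under 0.05 (1040 ± 66 and 871 ± 110, unadjusted p = 0.0164), and Mybpc2, fast myosin binding protein C, the 1 lower (297 ± 128 and 514 ± 105, unadjusted p = 0.0321).

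Calcium handling and sarcomere genes were not called. Of 18 calcium handling genes, 7 lay higher and 11 lower, with a median of -0.04. Cacna1c, the pore of the cardiac calcium channel, was at 6518 ± 635 in knockout and 5191 ± 910 in control libraries. Of 20 sarcomere and Z-disc genes, 9 lay higher and 11 lower. Tcap, the titin cap, was the 1 member with an unadjusted p under 0.05 (22265 ± 4876 and 34617 ± 11362, unadjusted p = 0.0213, adjusted p = 1.0), and Myom2, of the M-band, was at 29285 ± 7762 and 22653 ± 4505.

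Casq1, the calsequestrin of skeletal muscle that buffers calcium in its stores, had the lowest log2 change of the 12 leading genes that lay lower, which are described as a group further on. It had 70.2, 228, 105, 91.1 and 236 in knockout rapamycin libraries, against 538, 840, 306, 267 and 527 in control rapamycin libraries. Every knockout library lay below every control library, although the adjusted p of 0.69 did not pass (log2 change -1.81, SE 0.45, unadjusted p = 0.000691). Casq1 averaged 226 in knockout and 205 in control hearts under vehicle, and the difference between the arms was -1.97 (SE 0.64, unadjusted p = 0.0057, adjusted p = 0.523). Summed skeletal muscle markers ranged from 106402 to 179496 in knockout and from 105068 to 176137 in control rapamycin libraries, none of the 18 was at 0 in all libraries of either group, and 11 of the 13 tested lay lower. This list includes Ckm and also Eno3, which is in the glycolysis list too, and the part of each member in the sums was not tested. The low-level marker Pvalb was at 6.94 ± 8.4 in knockout and 18 ± 19.8 in control libraries.

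Matrix genes lay higher as a group without a called member. Of 40 tested, 32 lay higher, with a median of 0.20 against -0.02 over all genes and 0.85 for the same genes under vehicle. At an unadjusted p under 0.05, 3 lay higher and none lower. Cilp, a matrix protein of scars, had 664, 628, 955, 1426 and 3157 in knockout rapamycin libraries, against 729, 461, 342, 381 and 920 in control rapamycin libraries, so the groups overlapped (unadjusted p = 0.0423, adjusted p = 1.0). Timp2, an inhibitor of matrix proteases, was at 4703 ± 811 and 3837 ± 217, and Postn, which marks activated fibroblasts, at 1652 ± 633 and 1196 ± 370. Knockout rapamycin library 5 had the highest value of Cilp, Timp2 and Postn, and without it the median of the matrix list was 0.04.

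Fibroblast markers also lay higher without a called member, and 5 of the 18 (Col1a1, Col1a2, Col3a1, Lum and Fbln1) are in the matrix list too. Their summed value ranged from 108632 to 178669 in knockout (median 125308) and from 88438 to 113580 in control rapamycin libraries (median 106869), and none of the 18 was at 0. Of the 18, 14 lay higher, 5 of them at an unadjusted p under 0.05, with a median of 0.24. Dcn, the proteoglycan decorin, had 21887, 22426, 25050, 23297 and 29883 in knockout rapamycin libraries, against 21622, 19448, 14594, 18659 and 17710 in control rapamycin libraries. The groups just failed to overlap (unadjusted p = 0.00578, adjusted p = 1.0). Gsn, the actin-severing protein gelsolin, was at 71092 ± 10990 and 50032 ± 6545 (unadjusted p = 0.00178, adjusted p = 0.929), and Dpep1, a membrane dipeptidase, at 2206 ± 424 and 1523 ± 326. Without knockout rapamycin library 5 the median of the fibroblast list was 0.02. The part of fibroblast content in the matrix values was not tested.

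Markers of the other cell types showed no called gene. Endothelial markers had a median of 0.07 (10 of 15 higher, sums of 63183 to 78519 in knockout and 60191 to 72250 in control), and Esam, of endothelial junctions, was at 1936 ± 329 and 2149 ± 125. Smooth muscle and pericyte markers were split, 6 higher and 6 lower, with Acta2 at 3703 ± 1361 in knockout and 5223 ± 2425 in control and the channel gene Kcnj8 at 1441 ± 148 and 1622 ± 197. Macrophage markers were split 9 and 9. Retnla, of alternatively activated macrophages, was at 322 ± 204 and 497 ± 200, and the chemokine receptor gene Ccr2 at 130 ± 37.5 and 94 ± 32.3.

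Rare cell types gave wide intervals. Only 8 of 13 lymphocyte and neutrophil markers were tested, and the B cell genes Cd79b (12.5 ± 7.02 in knockout and 26.9 ± 7.41 in control, unadjusted p = 0.0172, adjusted p = 1.0) and Ms4a1 (2.37 ± 2.19 and 7.85 ± 6.13) were near the floor. All 8 erythroid markers tested lay lower, with a median of -0.46, while their sums overlapped, at 30412 to 106000 in knockout and 39648 to 101903 in control. With 1 rapamycin library left out, the erythroid median ran from -0.90 without knockout library 4 to -0.19 without control library 4. Of 16 atrial and conduction markers, 9 lay higher, with a median of 0.04. Of 14 nerve and glia markers, 10 lay higher, with a median of 0.21 that was -0.01 without knockout library 2. Scn7a, a sodium channel of glia and sensory neurons, was at 870 ± 147 in knockout and 588 ± 112 in control (unadjusted p = 0.00214, adjusted p = 1.0), and Cdh19 at 92.3 ± 29.3 and 70.2 ± 34.5. Adipocyte markers had a median of -0.06, with Plin1 at 22.2 ± 22 and 10.6 ± 6.92 and Fabp4 at 9861 ± 2210 and 10388 ± 2657. Mesothelial markers had a median of -0.58 over 10 genes, of which 3 lay higher and 7 lower. The 2 with the smallest p were Krt18, at 33.7 ± 12.8 and 20.9 ± 16.4, and Upk1b, at 26.4 ± 52.7 and 21.2 ± 17.1. The SD of Upk1b in knockout libraries exceeded its mean, so its group means need not show the direction of the log2 change. With other settings the mesothelial median ran from -0.86 to 0.22, so its sign depends on the setting, and it was -1.51 without knockout library 2. The adipocyte median ran from -0.22 to 0.64 with 1 rapamycin library left out, the highest without knockout library 4.

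**Figure D3:**
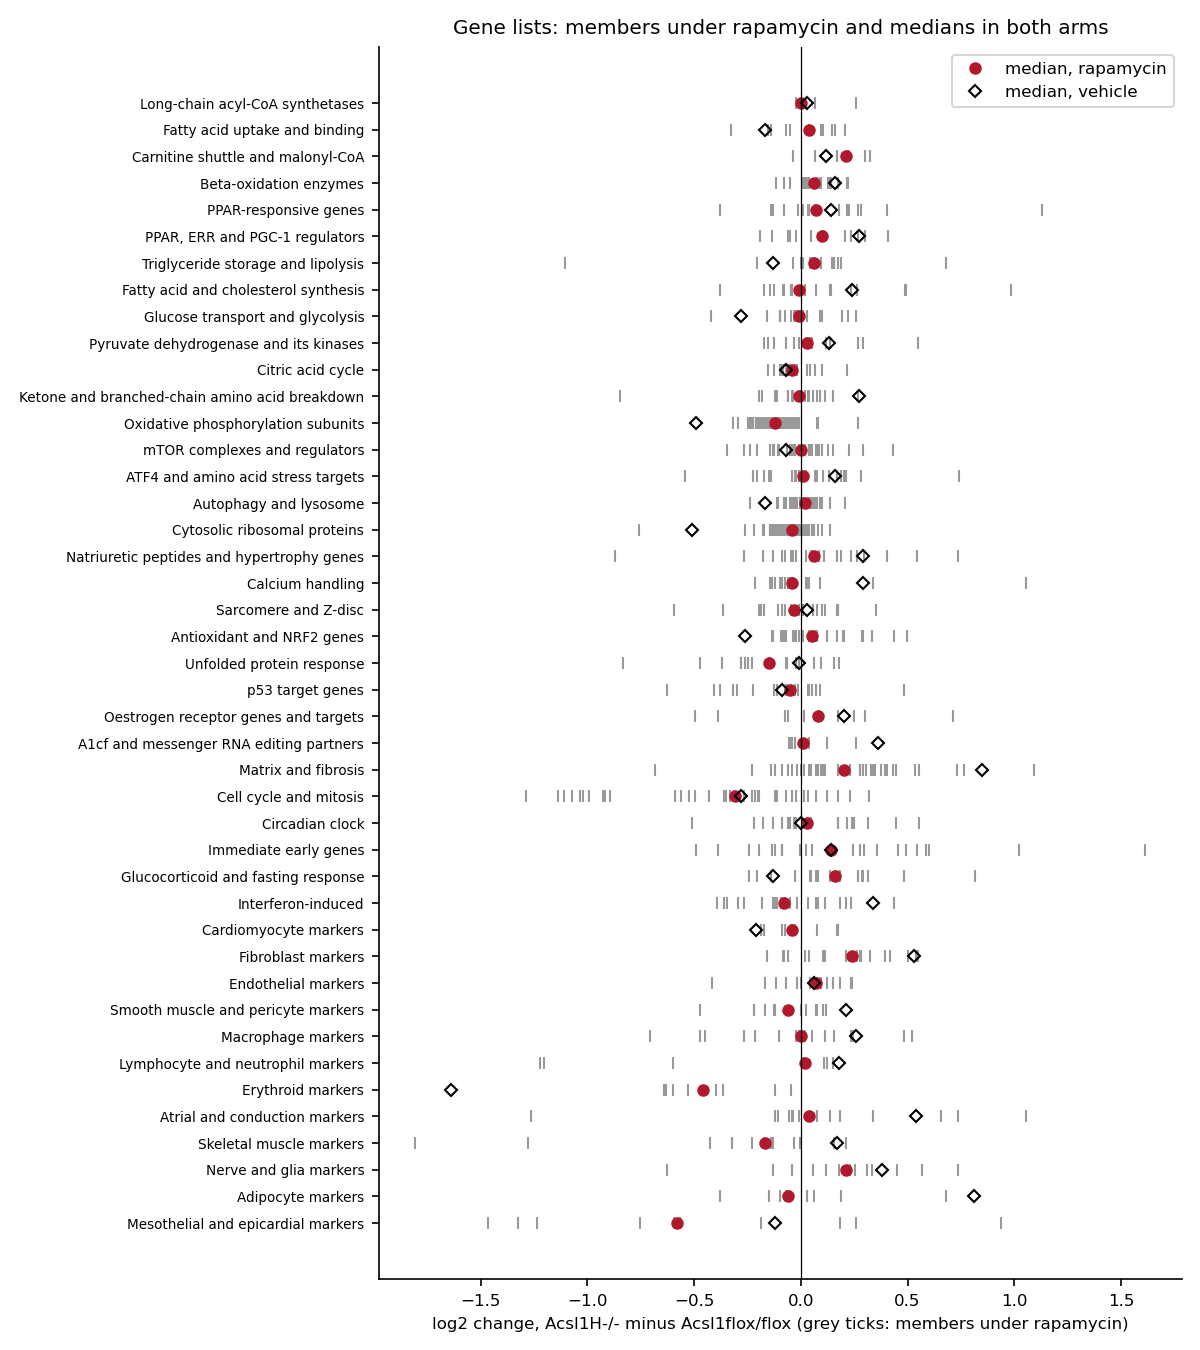
Log2 change, knockout minus control, of the tested members of 43 gene lists under rapamycin (grey ticks; Acsl1, Esr1 and A1cf are not drawn), with the list median under rapamycin (filled circles) and under vehicle (open diamonds). The rapamycin medians lie between -0.58 and 0.24, and those of oxidative phosphorylation, ribosomal protein, matrix and erythroid genes lie nearer to 0 than the vehicle medians.

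Cell cycle and mitosis genes lay lower as a group without a called member. Of 37 tested, 30 lay lower, 4 of them at an unadjusted p under 0.05, with a median of -0.31 under rapamycin and -0.28 under vehicle. Ccna2, cyclin A2, had 12.7, 17.3, 21.4, 9.76 and 23.5 in knockout rapamycin libraries, against 37.6, 37.6, 49.8, 16.5 and 45 in control rapamycin libraries. Only control library 4 lay within the knockout range (log2 change -1.07, SE 0.32, unadjusted p = 0.00328, adjusted p = 1.0). Prc1, which bundles the microtubules of the dividing cell, was at 10.6 ± 5.95 and 22.8 ± 8.4. These are low values in adult heart, and with a pseudocount, filter or weights changed the median of the list ranged from -0.46 to -0.08.

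Of 20 targets of p53, the factor that answers DNA damage, 4 lay lower at an unadjusted p under 0.05, none higher and none was called, with a median of -0.05. Eda2r, a death receptor of the TNF receptor family, had 68.9, 81.8, 65.3, 61.9 and 88.6 in knockout rapamycin libraries, against 107, 121, 112, 93.3 and 135 in control rapamycin libraries. The groups did not overlap (unadjusted p = 0.00579, adjusted p = 1.0). Bax, which opens the outer mitochondrial membrane in apoptosis, was at 280 ± 55.1 and 370 ± 54.6 (unadjusted p = 0.018), and Cdkn1a, a cell cycle inhibitor, at 1746 ± 722 and 1325 ± 848.

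The remaining stress and rhythm lists held no called gene. Of 18 unfolded protein response genes, 14 lay lower, with a median of -0.15, and the endoplasmic reticulum genes Sdf2l1 (133 ± 65.9 in knockout and 258 ± 172 in control) and Pdia6 (2038 ± 641 and 2423 ± 431) had the smallest p. Antioxidant genes had a median of 0.05 over 27 genes, with Nfe2l2, which encodes NRF2, at 2167 ± 107 and 1898 ± 272 and the catalase gene Cat at 7075 ± 651 and 6186 ± 717. Circadian clock genes had a median of 0.03 over 19 genes, with Npas2 at 88.7 ± 49.1 in knockout and 59.8 ± 33.7 in control. Immediate early genes had a median of 0.14 over 23 genes, which ran from -0.11 to 0.16 with other settings and was 0.01 without knockout library 5. Nr4a1, an orphan receptor induced within minutes, was at 2562 ± 1603 in knockout and 1059 ± 1266 in control, and Ier2 at 344 ± 125 and 469 ± 110. Glucocorticoid and fasting genes had a median of 0.16 over 19 genes (0.06 to 0.30 with 1 rapamycin library left out), with the insulin receptor substrate gene Irs2 at 489 ± 321 and 258 ± 106. Interferon-induced genes had a median of -0.08 over 22 genes, with Oasl2 at 230 ± 49.4 and 167 ± 20.4 (unadjusted p = 0.0396) and Isg15 at 69 ± 6.37 and 88.8 ± 17.7.

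Genes with no overlap between the rapamycin groups and a mean of at least 100 were ranked by p, and the first 12 in each direction are described next. None was called, and the lowest adjusted p was 0.473. All 24 had the same sign in each of the 4 sequencing pools, which the choice of non-overlapping genes favours. The 12 that lay higher include Gpm6b, Adam11, Pde1a, Parm1, Gfra1, Spry1, Pdk3, Dcn, Zdhhc5, Reep3 and Heatr7a, with log2 changes of 0.24 to 0.66.

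Gpm6b, a membrane proteolipid best known in brain, had 804, 891, 979, 806 and 1017 in knockout rapamycin libraries, against 764, 452, 525, 543 and 600 in control rapamycin libraries. Its log2 change was 0.66 (SE 0.15, unadjusted p = 0.000211). Adam11, a member of the ADAM family without protease activity, had 311, 359, 397, 522 and 425 in knockout rapamycin libraries, against 282, 265, 248, 250 and 217 in control rapamycin libraries. The lowest knockout library thus lay just above the highest control library in both genes.

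Parm1, a mucin-like membrane protein, was separated more widely. It had 1970, 2089, 1904, 2062 and 2177 in knockout rapamycin libraries, against 1353, 1306, 1332, 1602 and 1436 in control rapamycin libraries. The gap between the groups was larger than the spread within either (log2 change 0.54, SE 0.13, unadjusted p = 0.000501, adjusted p = 0.618). With control vehicle libraries 1 and 3 left out of the shared model, Parm1 was called beside Acsl1, Esr1 and A1cf, and its adjusted p ran from 0.00324 to 1.0 over all alternatives.

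Pde1a, a phosphodiesterase regulated by calcium and calmodulin, was at 227 ± 32.1 in knockout and 147 ± 17.5 in control libraries. Gfra1, a co-receptor for the neurotrophic factor GDNF, was at 310 ± 55 and 203 ± 24.7. Spry1, an inhibitor of receptor tyrosine kinase signalling, was at 1117 ± 105 and 894 ± 47.5. A further 3 differed by less in proportion: Zdhhc5, a palmitoyltransferase, was at 3903 ± 306 and 3311 ± 139, Reep3, which shapes the endoplasmic reticulum, at 768 ± 66 and 639 ± 41.3, and Heatr7a at 921 ± 82.7 and 770 ± 35.5. Of the 12, 11 also lay higher under vehicle, where 7653 of all 13548 genes did. At an unadjusted p under 0.05, 7 of them lay higher there, against 19.8% of all genes, and Gpm6b was called. Both arms share 1 estimate of spread per gene, so ranking by p under rapamycin favours a small p under vehicle. The exception in direction was Heatr7a, with -0.13 under vehicle and an unadjusted p of 0.00797 for the difference between arms (adjusted p = 0.523).

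The 12 that lay lower were Casq1, Fam131a, Ssbp1, B4galt4, Snrpd1, Egfl7, Arl4d, Slc1a1, Cdkn2d, BY080835, Bcl2l12 and Cnga3, with log2 changes of -1.81 to -0.33. Ssbp1, which binds single-stranded mitochondrial DNA, had 241, 244, 244, 261 and 243 in knockout rapamycin libraries, against 310, 321, 334, 310 and 279 in control rapamycin libraries. The knockout libraries lay within a narrow range below all controls (log2 change -0.33, SE 0.09, unadjusted p = 0.00175, adjusted p = 0.929). Fam131a was at 526 ± 82 and 758 ± 92.9, with a log2 change of -0.53 under rapamycin and -0.52 under vehicle.

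Egfl7, a protein secreted by endothelial cells, was at 817 ± 76.7 in knockout and 1093 ± 117 in control libraries, while 10 of 15 endothelial markers lay higher. Slc1a1, a glutamate transporter, was at 87.4 ± 13.1 and 143 ± 14.8. Snrpd1, a core protein of the spliceosome, was at 185 ± 21.6 and 251 ± 32.8, and Cdkn2d, an inhibitor of cyclin-dependent kinases, at 312 ± 22.2 and 407 ± 49.3. The levels of the small GTPase gene Arl4d were 322 ± 17.9 and 447 ± 62.1, those of the galactosyltransferase gene B4galt4 316 ± 21.2 and 421 ± 46.1, and those of the cyclic nucleotide-gated channel gene Cnga3 93.9 ± 8.24 and 166 ± 30.2. Bcl2l12, a relative of BCL2, was at 111 ± 17.1 and 161 ± 24.6, and BY080835 at 394 ± 78.2 and 573 ± 97.3. Of these 12, 9 also lay lower under vehicle, where 5894 of all 13548 genes did. At an unadjusted p under 0.05, 2 of them lay lower there, against 12.1% of all genes, and none was called. The shared estimate of spread bears on this count too.

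**Figure D4:**
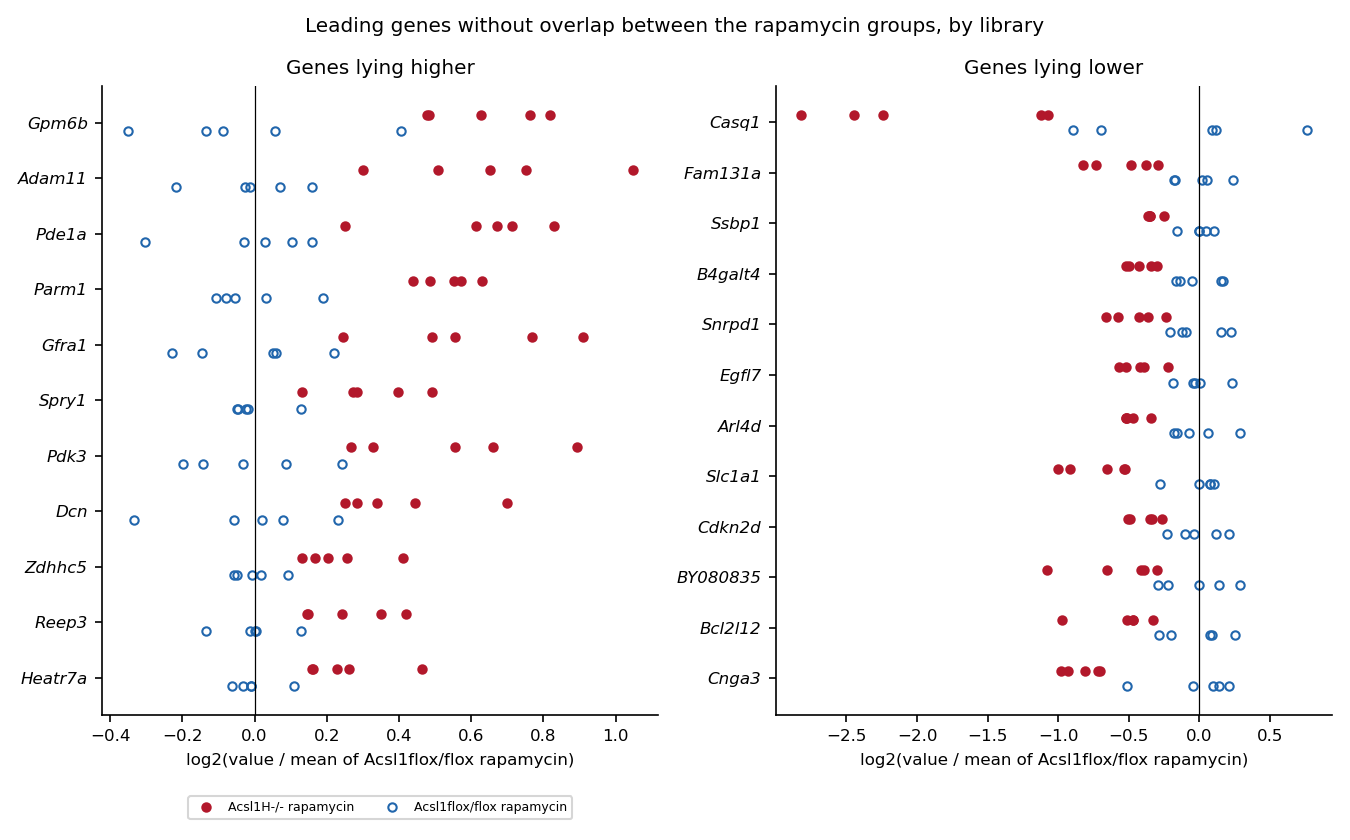
Value of each rapamycin library relative to the mean of the 5 control rapamycin libraries (horizontal axis, log2 ratio) for 11 of the 12 leading genes that lay higher (left) and the 12 that lay lower (right). Filled points are knockout and open points control libraries. The groups do not overlap, by the rule that chose the genes, and most gaps are narrow beside the spread within the groups.

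The 30 genes called under vehicle besides Acsl1, Esr1 and A1cf were followed in the rapamycin libraries. Those libraries did not enter the vehicle changes, but they entered the filter and the shared estimate of spread behind the vehicle calls. All 30 had the same direction under rapamycin, where 8271 of all 13548 genes did (61%). All 30 were smaller under rapamycin, as were 10380 of all 13548 genes, and choosing genes by their vehicle calls favours this. The median of the 30 was 0.40 under rapamycin against 1.04 under vehicle, in the vehicle direction. These genes were picked for being called under vehicle, so their vehicle values are a description. Of the 30, 13 had an unadjusted p under 0.05 under rapamycin, and Gpm6b was the 1 with no overlap. The difference between the arms had an unadjusted p under 0.05 for 20 of them, against 8.3% of all genes, and none passed after adjustment. That difference contains the vehicle change that chose these genes. A small p for it was therefore favoured in advance, here and for the single genes of this set below. With control vehicle libraries 1 and 3 left out, all 30 kept their direction, 29 were smaller under rapamycin, and 10 had an unadjusted p under 0.05 for the difference.

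Gabra3 lay nearly as far apart under rapamycin as under vehicle. It encodes a GABA receptor subunit and had 79.9, 132, 146, 151 and 165 in knockout rapamycin libraries, against 78.5, 56.1, 62.9, 63.1 and 80.1 in control rapamycin libraries. The lowest knockout library lay within the control range, and the log2 change was 0.95 under rapamycin (SE 0.22, unadjusted p = 0.000356, adjusted p = 0.578) and 1.07 under vehicle. The predicted gene Gm4788 was at 128 ± 34.2 in knockout and 88 ± 28.5 in control rapamycin libraries, with log2 changes of 0.56 under rapamycin and 1.87 under vehicle, and its values are uncertain because genes of similar sequence exist. A930038C07Rik (177 ± 54.3 and 104 ± 17.2), the PACAP receptor gene Adcyap1r1 (235 ± 43.9 and 159 ± 29.2) and the glycan-branching enzyme gene Gcnt1 (166 ± 51.9 and 98.2 ± 14.5) had log2 changes of 0.72, 0.56 and 0.71 under rapamycin, against 1.03, 1.05 and 1.05 under vehicle.

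Others lay near 0 under rapamycin. Mthfd2, the mitochondrial folate enzyme, had 63.4, 51.6, 72.2, 94.5 and 101 in knockout rapamycin libraries, against 61.7, 57.8, 68.5, 35.5 and 96.1 in control rapamycin libraries. The groups overlapped throughout, with a log2 change of 0.28 under rapamycin against 1.73 under vehicle, and a difference of -1.45 between the arms (95% interval -2.24 to -0.67, unadjusted p = 0.000985, adjusted p = 0.523). 1110002L01Rik was at 107 ± 10.1 and 101 ± 14.2, with a difference of -1.11 between the arms (unadjusted p = 0.000426, adjusted p = 0.523). Vcam1, a leukocyte adhesion molecule of the vessel wall, was at 598 ± 107 and 533 ± 22.1, with a difference of -0.73 (unadjusted p = 0.0035), and Srbd1 at 187 ± 18.2 and 168 ± 10.6, with a difference of -0.66 (unadjusted p = 0.00205).

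Several genes of this set encode matrix or secreted proteins. Itgbl1 was at 270 ± 101 in knockout and 159 ± 59 in control rapamycin libraries, Myoc at 259 ± 104 and 161 ± 54.1, Svep1 at 558 ± 238 and 355 ± 77.5, Crispld2 at 2247 ± 441 and 1631 ± 257, and Col8a1 at 729 ± 286 and 558 ± 136. Knockout rapamycin library 5 was the highest of the 10 for all 5 of these genes. The log2 changes of Pla2g4a, which releases arachidonic acid, Plcg2, a phospholipase of immune signalling, Echdc1, which removes aberrant acyl-CoA products, and the reticulon Rtn4 were 0.30, 0.29, 0.19 and 0.15. Those of Dsel, Rbms3, D630003M21Rik and Adrbk2 were 0.17, 0.13, 0.11 and 0.10.

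Of the 5 genes that were lower in knockout hearts under vehicle, Egflam, which encodes the matrix protein pikachurin, had 488, 590, 553, 448 and 453 in knockout rapamycin libraries, against 637, 682, 607, 661 and 587 in control rapamycin libraries. Only 1 knockout library reached the control range (log2 change -0.33, SE 0.10, unadjusted p = 0.00409, adjusted p = 1.0). Ano10, of the anoctamin family, was at 2221 ± 517 and 2755 ± 662, with a log2 change of -0.31. The haemoglobin transcripts Beta-s (21353 ± 13533 and 31709 ± 13148) and Hba-a2 (23211 ± 15013 and 33024 ± 12311) overlapped widely, and near-identical globin copies make their separate values uncertain. Chac1, described above, had -0.54 under rapamycin and -1.22 under vehicle.

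**Figure D5:**
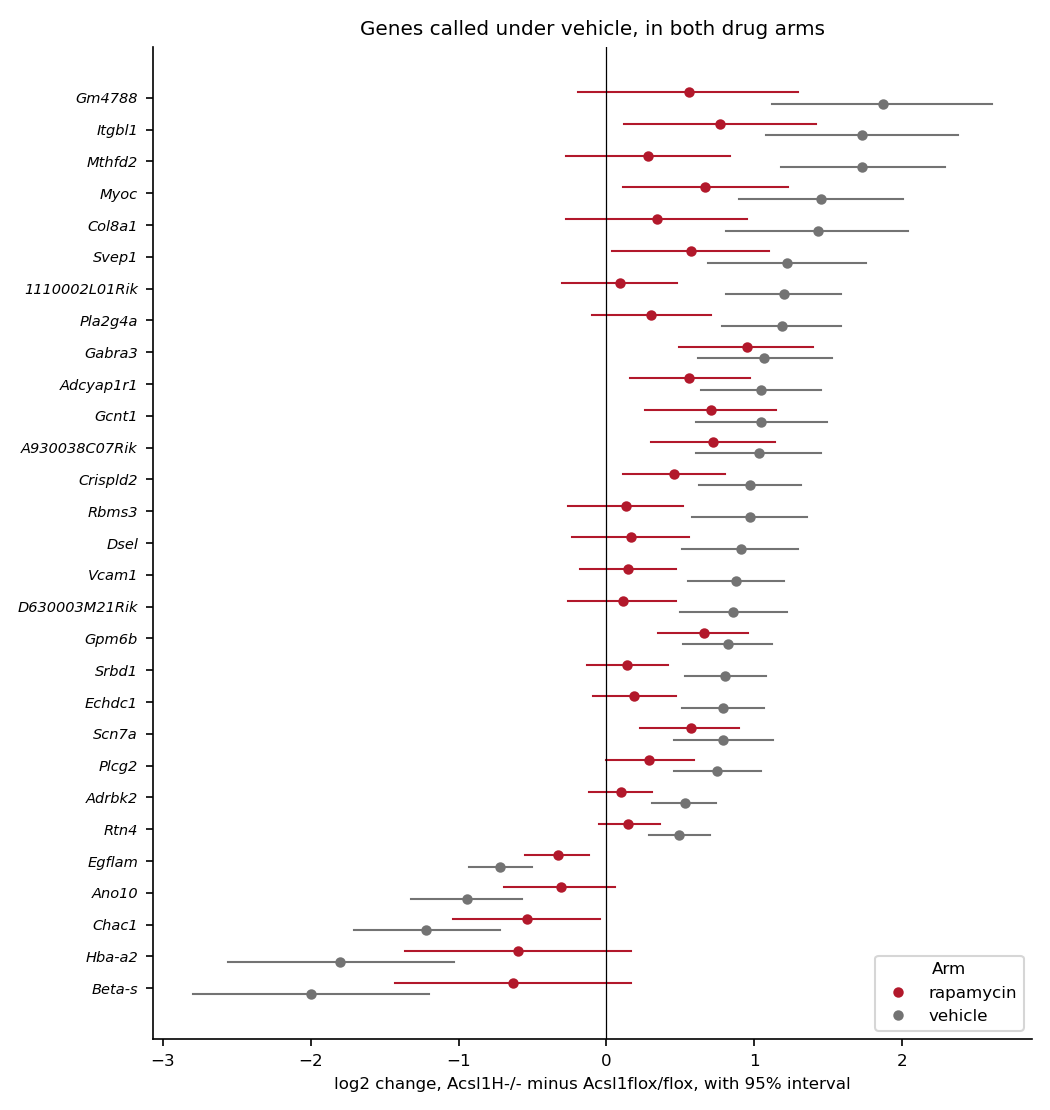
Log2 change, knockout minus control, with its 95% interval (horizontal axis) for 29 of the 30 genes called under vehicle besides Acsl1, Esr1 and A1cf, under rapamycin (red, upper of each pair) and vehicle (grey, lower). The 29 drawn point the same way in both arms, and the rapamycin change is the smaller, most nearly alike for Gabra3 and least for genes such as Mthfd2.

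Whether the knockout effect differed between the arms was tested for every gene as the rapamycin change minus the vehicle change. No gene passed (0.0%), and 1124 genes had an unadjusted p under 0.05 (8.3%), a number that was 482 without control vehicle libraries 1 and 3. For the 3 called genes the difference was -0.45 for Acsl1 (95% interval -1.27 to 0.36, unadjusted p = 0.26), -0.55 for Esr1 (-1.16 to 0.06, unadjusted p = 0.0728) and -0.66 for A1cf (-1.95 to 0.64, unadjusted p = 0.302). The smaller number of calls under rapamycin than under vehicle is thus a difference in counts, and no single gene was shown to respond differently.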

How the data were processed

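The deposited file gives 1 normalized expression signal per gene and library: RSEM estimates that the authors scaled to a common upper quartile, per the deposited table's own label and values, with an upper quartile of 996.6 to 1000.0 above 0. Build mm9, Picard 1.64, SAMtools and RSEM are named in the submitters' processing notes; the sources used here name no aligner and no further version. The values are not counts. Between 85.6% and 88.2% of low values were whole multiples of 1 step per library within 0.05 reads, too few to treat reads as recovered; the steps gave the implied depths.

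Values were analysed as log2(value + 1) with limma 3.58.1 in R 4.3.3 (intensity trend, 1 mean per group, all 20 libraries, 16 residual degrees of freedom), with Benjamini-Hochberg adjustment and a threshold of 0.05. The fit was checked on simulated data. The comparison, its members, the 43 gene lists and the rules were chosen with earlier results of these data known. Named genes are Acsl1, Esr1 and A1cf, called genes, the 12 leading non-overlapping genes per direction with a mean of at least 100, the 2 members of each list with the smallest p, genes called under vehicle, and fixed metabolic and heart genes. Of 21705 identifiers, 21562 were found in the RefSeq table (GRCm38.p6), used for gene order only. Alternatives were other pseudocounts, filters, scalings, spread estimates, a pool term, a replicate block, and libraries left out. Some genes covered by this rule are left out.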

Additional observations from a re-analysis of the deposited data

Results flagged for a closer look

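In 5 of 54 groups of 5 libraries examined among the called and leading genes, 1 library stood far from the others by Dixon's test, where chance gives about 1 in 20. Ssbp1 was at 261 in knockout rapamycin library 4, against 241 to 244 in the other knockout libraries. Arl4d was at 353 in knockout rapamycin library 2, against 311 to 322. Bcl2l12 was at 82.2 in knockout rapamycin library 3, against 113 to 128. Spry1 was at 978 in control rapamycin library 2, against 864 to 883 in the other control libraries. Slc1a1 was at 118 in control rapamycin library 1, against 143 to 154. The libraries differ from gene to gene.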

How the results depend on the processing

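Acsl1, Esr1 and A1cf were called under every alternative that tested them, with adjusted p of 1.13e-08 to 3.11e-05, 9.5e-19 to 1.38e-12 and 1.61e-06 to 0.029. Where genes needed a mean of at least 100, A1cf was not tested and 1 gene was called higher. Robust empirical Bayes with array weights called 14 genes, 7 higher and 7 lower, the added ones including Gpm6b, Adam11, Parm1, Scn7a, Egfl7 and Fam131a; the cause was not tested. Leaving out each rapamycin library gave 3 to 4 called genes (4 without control rapamycin replicate 4) and 317 to 479 at an unadjusted p under 0.05. Among the other alternatives, genes at an unadjusted p under 0.05 were fewest with the stricter filter, at 270 of 10340 (2.61%). They were most numerous with array weights, at 1311 of 13548 (9.68%). The interaction called 0 genes in each setting that gave one, with 482 to 1547 at an unadjusted p under 0.05. A replicate block gave 3 calls and 384 unadjusted. Same-numbered libraries deviated with correlations of 0.03, -0.04, -0.04, -0.17 and 0.27. Only for number 5 was the same-numbered control library the best match. Such correlations cannot show whether the numbers pair animals, so pairing is left unknown. Signs turned for uncalled genes: Pdk4 to -0.02 and Ucp3 to -0.16 with a pool term, and Ucp3 to -0.06 with array weights. With 1 library left out, log2 changes ran from -0.03 to 0.30 for Acsl3, -0.07 to 0.06 for Acsl4, -0.07 to 0.01 for Acsl5, -0.58 to 0.27 for Acta1, -0.18 to 0.07 for Fabp4, -0.20 to 0.04 for Hk2, -0.07 to 0.14 for Myh7, -0.07 to 0.60 for Pdk4, -0.01 to 0.20 for Slc2a1 and -0.22 to 0.25 for Ucp3.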

Other observations

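A few genes outside the naming rule were picked after their values were seen. Masp1, a protease of the lectin complement pathway, was at 140, 179, 179, 215 and 197 in knockout rapamycin libraries, against 269, 364, 355, 393 and 393 in control rapamycin libraries, with an adjusted p of 1.0. Its groups did not overlap under rapamycin, and it averaged 237 ± 129 in knockout and 218 ± 95.4 in control hearts under vehicle. Tpbg, a membrane glycoprotein, was at 26.7 ± 5.16 in knockout and 12.1 ± 5.49 in control rapamycin libraries, and Slc15a2, a peptide transporter, at 44.2 ± 10.6 and 99.3 ± 30.4. The predicted gene Gm10406 was listed at 0 in all 5 knockout rapamycin libraries, against 4.91 to 17.2 in control rapamycin libraries (adjusted p = 0.178). Under vehicle it was at 4.75 to 21.2 in knockout and at 0 to 14.7 in control hearts, with control vehicle libraries 2 and 3 at 0.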
